A study of Mus musculus with 14 samples.

Results

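Described here are 43 mouse genes of the interferon response: 20 antiviral effectors, 7 interferon-inducible GTPases, 9 interferon regulatory factors (IRFs) and STAT proteins, 4 chains of the interferon receptors and 3 sensors of foreign or misplaced nucleic acid. They were taken by symbol from a list of known genes, chosen with earlier results of these data known. All 43 were among the 35171 gene rows of the bulk RNA-seq tables, and 42 were among the 28692 genes of the single-cell matrix, where Mx2 was not analysed. The series asks about P2Y14, a receptor for UDP-glucose, in mouse liver and in hepatic stellate cells. These are pericytes of the liver that store vitamin A, and turn into collagen-making myofibroblasts on injury and on plastic.

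Interferons are cytokines that cells release on infection. Type I interferons bind the receptor chains Ifnar1 and Ifnar2, and interferon gamma binds Ifngr1 and Ifngr2. Receptor-bound kinases then phosphorylate STAT proteins, which enter the nucleus and bind 2 kinds of DNA element: the interferon-stimulated response element (ISRE), bound by a complex that holds Stat2 and Irf9, and the gamma-activated site (GAS), bound by STAT dimers. The genes switched on encode proteins that block the entry, translation or release of viruses, GTPases that attack the vacuoles of intracellular microbes, and further IRFs that carry the response on. Many of these genes also have a level in uninfected tissue.

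The bulk data comprised 13 libraries in 4 groups. Quiescent stellate cells (n = 4) were sorted from uninjured liver by vitamin A and by a TdTom reporter switched on by LratCre, in LratCre+, TdTom+ mice in C57BL/6J, and were never plated. Whole uninjured liver (n = 3) carried the same strain label. Control cultures (n = 3) and UDP-glucose cultures (n = 3) were stellate cells labelled Balbc, for which no sort was described, plated for 5 h in 10% FBS and then held in 0.1% FBS. The UDP-glucose cultures received 10 µM UDP-glucose by their treatment label and description, while their titles read UDP, and the treatment label is followed here. Both kinds of culture were labelled 24 h. One single-cell library (Chromium 3′ v2) came from normal C57BL/6 liver. LratCre marks the stellate lineage, so the reporter sort defines the quiescent group, and the labels do not state how many mice or cultures lie behind each group.

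Bulk values are TPM, transcript abundances corrected for length and scaled to nearly the same sum in every library, which keep no depth, so the depth of these libraries is unknown. Summed over 14 stellate markers, TPM ran from 68945 to 77010 in the quiescent libraries, 83.2 to 195 in whole liver, 12467 to 13038 in control cultures and 10383 to 11806 in UDP-glucose cultures. Markers of other cells were present in the quiescent libraries. All 12 Kupffer cell markers had a mean of at least 1 TPM there (summed 276 to 359 TPM), as had all 13 sinusoidal endothelial markers (521 to 1198 TPM). In control cultures 1 of 12 (Slc40a1, an iron exporter) and 3 of 13 (Bmp2, Egfl7 and Clec14a) did, and the defining markers Clec4f, Vsig4 (Kupffer cells) and Stab2 (endothelium) were listed at 0 in all 3. Sums of these lists are therefore also given without those genes, which were chosen after their values were seen: the other 11 Kupffer markers summed to 93.7 to 195 TPM in quiescent libraries and 0.43 to 1.28 in control cultures, and the other 10 endothelial markers to 292 to 897 and 2.02 to 2.37. Hepatocyte markers summed to 415 to 533 TPM in quiescent libraries, 77419 to 107875 in liver and 28.8 to 65.8 in control cultures. In quiescent libraries most of this sum was Trf, transferrin (397 to 516 TPM), and the other 11 hepatocyte markers summed to 16.6 to 28.7 TPM, with albumin (Alb) at 4.52 to 11.2. Mitochondrial transcripts took 4.86 to 5.66% of TPM in quiescent libraries, 18.5 to 22.4% in liver and 2.80 to 4.41% in cultures.

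The promoters of the members were read first, because the ISRE and the GAS are the letters through which an interferon signal is known to act. RefSeq promoter windows of GRCm38.p6, 250 bases before to 50 bases after the start, were matched by symbol for 37 of the 43 members; Oas2, Mx1, Mx2, Usp18, Iigp1 and Tmem173 are named only. The ISRE was searched as TTTC, any 2 bases, then TTTC (on the other strand GAAA, any 2 bases, then GAAA), and the GAS as TTC, any 3 bases, then GAA, which reads the same on both strands. A gene with several windows counted once, when any of them held the match. An ISRE match was found for 21 of the 37 members (56.76%), against 1079 of 27025 genes with a window (3.993%). Among members with a window it was found for 6 of 6 GTPases, 11 of 16 effectors and 2 of 2 sensors. It was found for 2 of 9 IRFs and STATs (Irf2 and Stat2) and 0 of 4 receptor chains. A GAS match was found for 14 of 37 members (37.84%), against 9.554% of genes with a window. The members were picked for their part in the interferon response, so these shares describe the list. Printed here are 160 bases, from 180 to 21 bases before the start, of 6 members picked as examples from those with a match, with ISRE and GAS matches in capitals: Ifit1 and Ifit3 with 2 ISREs each, Isg15 with 3 ISRE matches that overlap each other in steps of 6 bases, Gbp7 and Igtp with both elements, and Irf1 with a GAS alone. Their positions are chr19:34640709-34640868 (plus strand), chr19:34583349-34583508 (plus), chr4:156200839-156200998 (minus), chr3:142530156-142530315 (plus), chr11:58199376-58199535 (plus) and chr11:53769834-53769993 (plus), all upstream of the annotated first exon.
Ifit1: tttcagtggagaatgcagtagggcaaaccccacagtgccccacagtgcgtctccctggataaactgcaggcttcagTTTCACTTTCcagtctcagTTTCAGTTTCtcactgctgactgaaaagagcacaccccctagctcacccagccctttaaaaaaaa
Ifit3: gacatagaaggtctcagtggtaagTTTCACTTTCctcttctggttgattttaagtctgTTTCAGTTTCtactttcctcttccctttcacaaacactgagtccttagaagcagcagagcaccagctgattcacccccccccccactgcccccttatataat
Isg15: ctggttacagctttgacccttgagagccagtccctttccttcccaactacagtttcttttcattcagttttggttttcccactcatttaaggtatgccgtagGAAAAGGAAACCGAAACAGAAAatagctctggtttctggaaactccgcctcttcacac
Gbp7: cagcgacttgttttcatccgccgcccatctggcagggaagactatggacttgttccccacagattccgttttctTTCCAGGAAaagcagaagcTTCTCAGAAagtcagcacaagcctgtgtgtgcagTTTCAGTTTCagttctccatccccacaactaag
Igtp: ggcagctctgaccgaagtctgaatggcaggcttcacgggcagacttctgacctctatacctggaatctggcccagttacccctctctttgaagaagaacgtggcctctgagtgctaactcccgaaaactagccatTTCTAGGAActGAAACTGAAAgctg
Irf1: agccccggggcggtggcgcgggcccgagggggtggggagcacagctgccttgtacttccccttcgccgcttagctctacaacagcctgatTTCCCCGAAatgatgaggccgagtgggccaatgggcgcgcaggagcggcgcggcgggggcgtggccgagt

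A match is a description of letters and not evidence of binding. The windows of Ifitm1, the effector that differed most between the groups, and of Irf7 held neither element. The Ifitm1 window (chr7:140967826-140968125) lies inside the gene as annotated, which starts at 140967221. Bases before that annotated start were not searched. Allowing 1 mismatch in the ISRE raised the share to 27 of 37 members (72.97%), but also to 38.88% of all genes with a window.

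**Figure D1:**
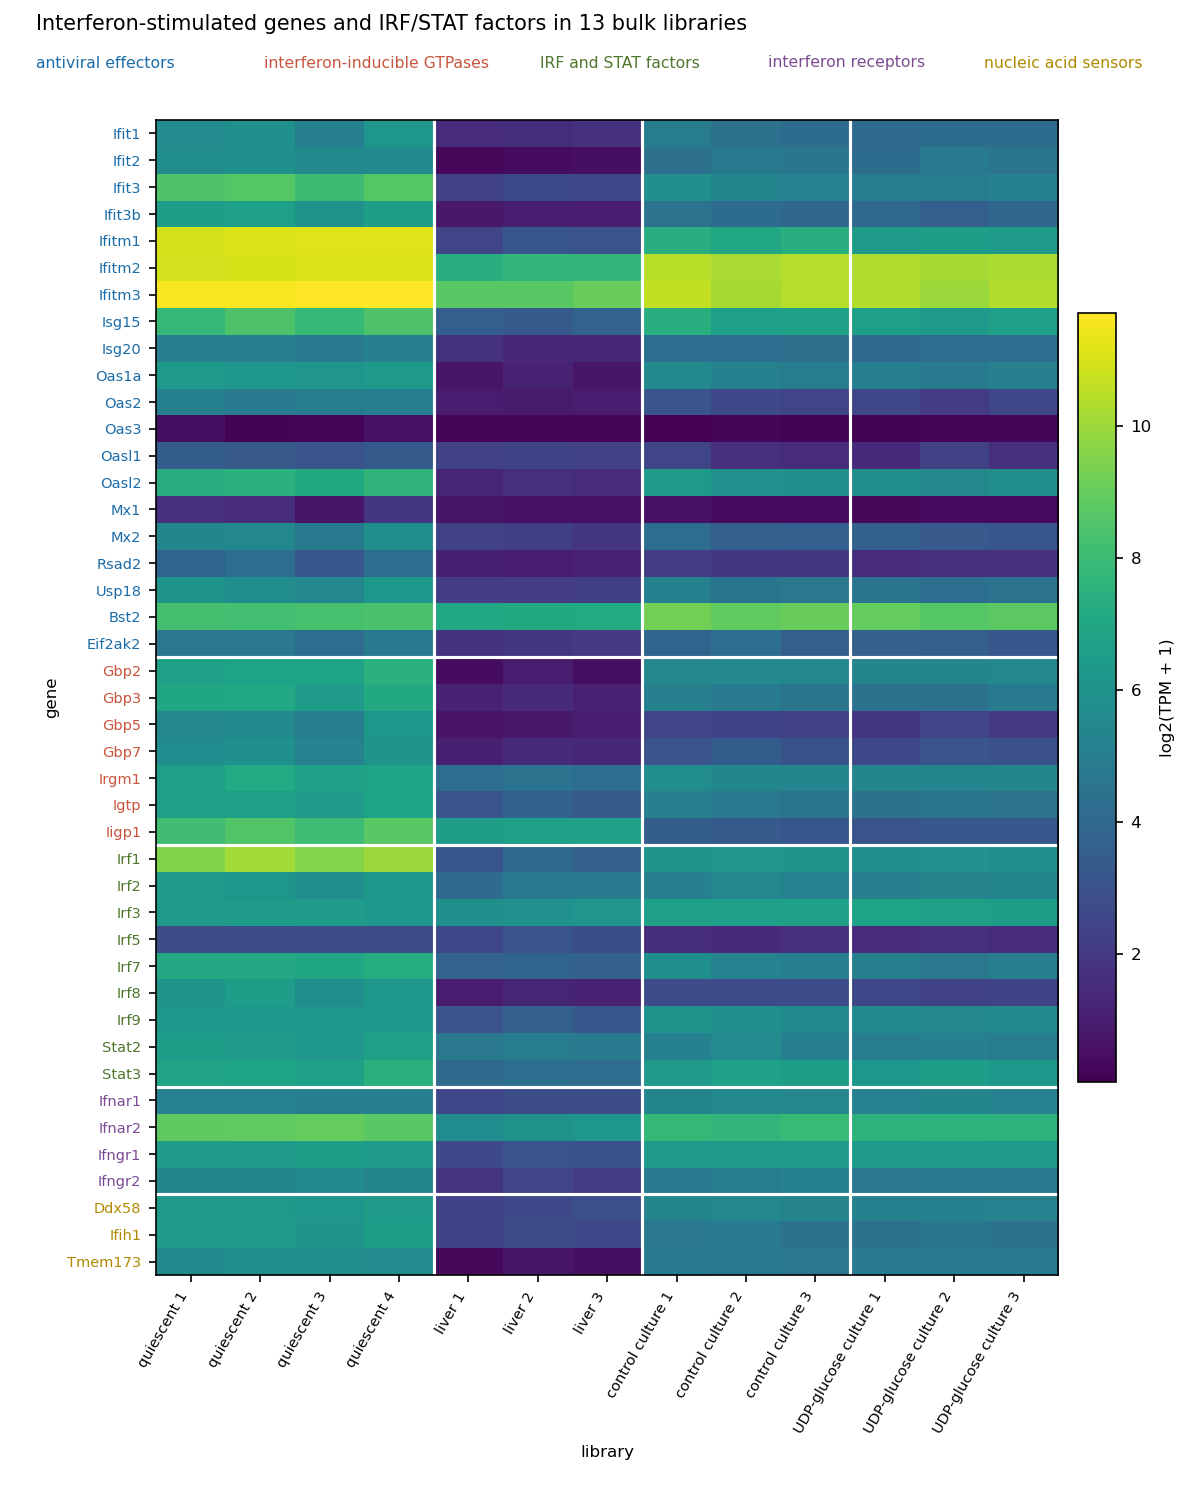
Abundance of the 43 members (rows, grouped by role, with white lines between roles) in the 13 bulk libraries (columns, with white lines between groups), coloured by log2(TPM + 1). The quiescent columns are the brightest for most rows and the liver columns the darkest, while Oas3 stays under 1 TPM in every library.

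Levels in quiescent stellate cells spanned more than 3 orders of magnitude. The interferon-induced transmembrane proteins, which block viral fusion with the cell membrane, led the list. Ifitm3 averaged 3171 ± 162 TPM (SD, n = 4), Ifitm1 2143 ± 149.97 and Ifitm2 2069 ± 116, of which the last pair were closer together than their spread. The transcription factor Irf1 came next at 891 ± 181 TPM. Then followed the receptor chain Ifnar2 (460.2 ± 30.5), Ifit3 (354 ± 64.2), Iigp1 (339 ± 76.3), Bst2 (315 ± 10.5) and Isg15 (289.7 ± 69.2), and from Ifit3 to Isg15 neighbours in this order lay within their spread. Oas3 was at 0.442, 0.155, 0.229 and 0.555 TPM and passed no filter on low values. Some of these values are uncertain where a gene shares sequence with another: 61.8% of the 31-base words of Ifit3 also occur in other genes, mostly in Ifit3b, as do 68.8% of those of Oas1a, mostly in Oas1g, and 55.5% of those of Ifitm2.

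The first comparison set quiescent stellate cells against whole liver, to find which members stand higher in the sorted cells. In this comparison 38 of the 42 members tested were higher in quiescent cells and 0 were lower, where 67% of all 12643 genes tested were called higher and 10.9% lower (77.9% in either direction). A call required an adjusted p below 0.05 from limma over all genes and an absolute log2 difference of at least 1 in log2(TPM + 1). The median difference was 3.46 for the members and 1.62 for all genes, so most genes had higher TPM in the sorted cells. After median-of-ratios rescaling, which brought the median of all genes to 0.04, 29 members were higher and 2 lower (Irf3 and Irf5), with 26.7% and 26.1% of all genes. At an unadjusted p below 0.05, 41 members were higher and 0 lower, where 78.3% of all genes were higher and 14.5% lower. Groups did not overlap for 41 members, all of them higher, where 91.1% of all genes did not overlap, 77.2% higher and 13.9% lower. Of the 42, 8 passed the filter of a mean of 1 TPM through the quiescent libraries alone (Ifit2, Ifit3b, Oas1a, Oas2, Mx1, Gbp2, Gbp5 and Tmem173), so any call of theirs could only point upward. Fewer cells of a type and less RNA per cell cannot be told apart in bulk tissue. The groups come from separate tables, and table, sort and tissue cannot be told apart here. Kupffer markers summed to 276 to 359 TPM in quiescent libraries and 72.2 to 135 in liver, and sinusoidal endothelial markers to 521 to 1198 and 46.0 to 112. Without the genes named before, these ranges were 93.7 to 195 against 58.6 to 110, which overlap, and 292 to 897 against 33.9 to 81.9. Their part in the result was not tested.

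Among the effectors 17 of 19 tested were higher, where 67% of all genes were. The effectors' median log2 difference was 3.71. Of the effectors called, Ifit2, Ifit3b, Oas1a and Oas2 passed the filter through the quiescent libraries alone, so their calls could only point upward. After rescaling 15 were higher, where 26.7% of all genes were. The calls of Bst2, which turned sign, and Ifitm3 (0.88, under the minimum of 1) were lost. Ifitm1 was at 1961, 2081, 2244 and 2285 TPM in the 4 quiescent libraries and 4.62, 7.96 and 7.37 in the 3 liver libraries. Its quiescent values lay close together, far above every liver value, and the log2 difference of 8.16 ± 0.16 (SE; adjusted p = 5.43e-12) was the highest of the members tested. Ifitm3, its neighbour, was at 3028, 3035, 3299 and 3324 against 419, 421 and 515 TPM (2.81 ± 0.12), so it was already abundant in liver. The IFIT proteins bind viral RNA that lacks the host cap mark. Ifit2 was at 53.4, 59.8, 47.4 and 47.7 TPM in quiescent cells and 0.255, 0.397 and 0.456 in liver, and Ifit1 at 50.5, 59.2, 33.5 and 71.2 against 1.97, 2.02 and 2.34, with log2 differences of 5.27 ± 0.12 and 4.08 ± 0.21. Ifit3b differed by 5.49. Ifit3 gave 5.93 ± 0.17, and no quiescent library of any IFIT gene overlapped a liver library. Isg15, a ubiquitin-like protein joined to other proteins, was at 227, 354, 232 and 345 TPM against 10.8, 9.43 and 12.5 (log2 difference 4.59 ± 0.19). Its protease and pathway brake Usp18 differed by 3.71. The oligoadenylate synthetases activate an RNA-degrading enzyme: Oasl2 was at 159.9, 172, 140.3 and 198 against 1.46, 2.09 and 1.92 TPM (5.89 ± 0.14), Oas1a differed by 5.31 and Oas2 by 4.05. Also higher were Isg20 (3.53), Ifitm2 (3.38), Mx2 (3.24), Rsad2 (2.84), Eif2ak2 (2.70) and Bst2 (1.21). Mx2 is annotated as a polymorphic pseudogene, and whether Mx1 or Mx2 RNA gave a working protein in these mice was not examined.

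The 2 effectors tested and not called were Oasl1 and Mx1. Oasl1 was at 10.5, 9.07, 7.40 and 9.30 TPM in quiescent cells and 4.01, 4.58 and 4.02 in liver, a log2 difference of 0.94 that missed the minimum of 1 although the groups did not overlap. Mx1 was at 2.13, 1.95, 0.690 and 2.95 against 0.670, 0.495 and 0.526 TPM (0.84, adjusted p = 0.00871). Bst2 tethers budding virions to the cell surface. It was at 309, 302, 322 and 324 against 127, 139 and 142 TPM, and was called higher at 1.21 ± 0.11, but after rescaling it was at -0.72, lower. The sign also turned for Oasl1 (-0.73) and Mx1 (-0.13).

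All 7 GTPases were called higher, where 67% of all genes were, and their median log2 difference was 4.42. Gbp2 and Gbp5 passed the filter through the quiescent libraries alone, so their calls could only point upward. After rescaling 5 were called higher, where 26.7% of all genes were: Irgm1 (0.61) was under the minimum and Iigp1 (-0.19) turned sign. The guanylate-binding proteins Gbp2, Gbp3, Gbp5 and Gbp7 coat pathogen vacuoles. Gbp2 was at 101, 113, 112 and 173 TPM in quiescent cells, with quiescent library 4 apart from the rest, and at 0.396, 1.03 and 0.425 in liver (log2 difference 6.27 ± 0.20). Gbp3, Gbp5 and Gbp7 differed by 5.59, 4.72 and 4.42. The immunity-related GTPases Igtp, Irgm1 and Iigp1 differed by less, at 3.26, 2.49 and 1.73. Iigp1 was the GTPase with the highest level in liver, at 93.7, 101 and 104 TPM against 282, 376, 270.1 and 429 in quiescent cells.

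Of the 9 transcription factors 7 (77.8%) were called higher, a share near the 67% of all genes called higher. After rescaling 4 were called higher, where 26.7% of all genes were. Irf2 (-0.38) and Stat2 (-0.29) then turned sign, and Stat3 (0.86) was under the minimum. Irf1, an early factor downstream of interferon gamma, was at 726, 1097, 751 and 988 TPM in quiescent cells and 7.98, 16.2 and 11.5 in liver. Libraries 2 and 4 were the high ones in the quiescent group, and the log2 difference was 6.14 ± 0.22 (adjusted p = 4.05e-10). Irf8, best known from macrophages and dendritic cells, was at 66.4, 92.95, 57.0 and 74.3 against 0.939, 1.41 and 1.26 TPM (5.05 ± 0.17). Irf7, the amplifier of type I interferon synthesis, was at 134, 134, 122 and 155 against 12.4, 13.0 and 11.4 TPM (3.37 ± 0.12). Irf9 and Stat2, the partners in the ISRE-binding complex, differed by 2.94 and 1.60, Stat3 by 2.75 and the Irf1 antagonist Irf2 by 1.51. Irf3, which is held in the cytoplasm until a sensor fires, was at 77.9, 88.8, 87.3 and 75.4 against 56.7, 61.6 and 68.6 TPM. Its groups did not overlap, but the log2 difference was 0.40 (adjusted p = 0.00812), under the minimum. Irf5 was at 5.81, 5.90, 6.12 and 5.68 against 5.00, 7.84 and 6.25 TPM and was the 1 member whose groups overlapped (-0.08, 95% interval -0.39 to 0.23, adjusted p = 0.591). After rescaling Irf3 was at -1.51, lower in quiescent cells.

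All 4 receptor chains and all 3 sensors were called higher, where 67% of all genes were. Tmem173 passed the filter through the quiescent libraries alone, so its call could only point upward. After rescaling the sensors were all called, but only 2 of the receptor chains, where 26.7% of all genes were called higher. Ifnar1 (0.64) and Ifnar2 (0.95) were under the minimum. Ifnar2 was the most abundant chain in both groups, at 448, 465, 500.03 and 428 TPM in quiescent cells and 51.7, 64.5 and 71.4 in liver (2.87 ± 0.13). Its partner Ifnar1 was at 36.0, 36.6, 32.8 and 33.9 against 4.92, 5.98 and 6.16 TPM (2.43 ± 0.12). The interferon gamma receptor chains Ifngr1 and Ifngr2 differed by 3.55 and 3.22. The cytoplasmic RNA sensors Ddx58 (RIG-I) and Ifih1 (MDA5) differed by 3.67 and 3.78. Tmem173 (STING), the adaptor for cytoplasmic DNA, was at 48.6, 54.3, 53.3 and 51.1 TPM in quiescent cells and 0.242, 0.698 and 0.448 in liver (5.19 ± 0.13).

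**Figure D2:**
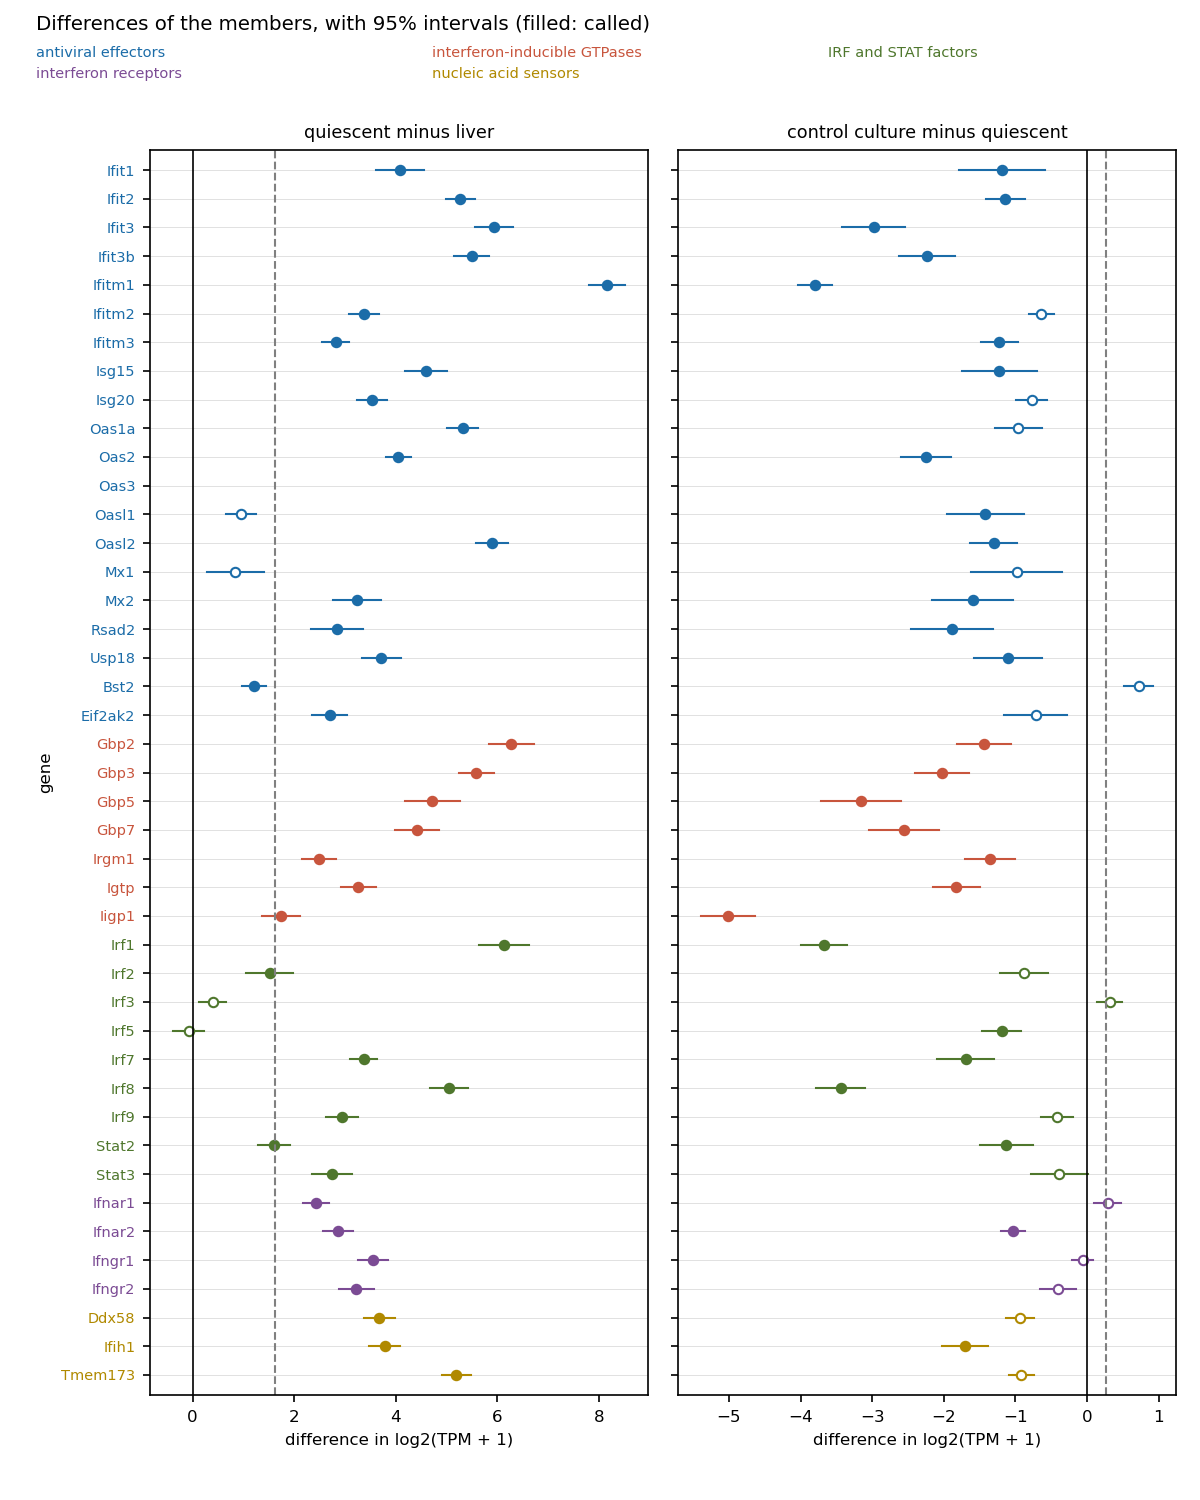
Differences in log2(TPM + 1) of the members (rows, coloured by role) between quiescent stellate cells and whole liver (left) and between control cultures and quiescent cells (right), with 95% limma intervals; filled points were called, and the dashed grey line is the median of all genes tested. Oas3 was not tested; most points lie right of the dashed line on the left side and left of it on the right side, with Bst2, Irf3 and Ifnar1 right of 0 on the right side.

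Control cultures were then compared with quiescent cells, which are the same 4 libraries as above, so the 2 comparisons share their quiescent values and are not independent. In culture 27 of the 42 members tested were lower and 0 were higher, where 13.2% of all 12537 genes tested were called lower and 18.6% higher (31.8% in either direction). Mx1 passed the filter through the quiescent libraries alone. The median difference was -1.21 for the members and 0.26 for all genes. At an unadjusted p below 0.05 and with no minimum fold, 37 members were lower and 3 higher, where 25.6% of all genes were lower and 47.7% higher. Groups did not overlap for 36 members that were lower and 3 that were higher, where 70% of all genes did not overlap, 23.6% lower and 46.4% higher. After median-of-ratios rescaling 33 members were lower and 0 higher, where 16.2% and 12.3% of all genes were. Summed over the 43 members, TPM was 11490.1, 12438, 11914 and 13284 in quiescent libraries and 5444, 4403 and 4825 in control cultures. Strain label, sort, plating, medium and table all differ between these groups and cannot be told apart.

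The 7 GTPases were all lower in culture, where 13.2% of all genes were, and their median log2 difference was -2.03. Iigp1 fell furthest of all members: from 282, 376, 270.1 and 429 TPM in quiescent cells to 10.5, 9.32 and 8.22 in control cultures, 36.3-fold by the ratio of means (log2 difference -5.02 ± 0.17; adjusted p = 3.08e-08). Cultured values were also below the 99.5 ± 5.17 TPM (SD, n = 3) of whole liver. Gbp5 was at 4.70, 4.27 and 4.22 TPM in culture, against 44.2, 48.6, 30.9 and 74.1 in quiescent cells, where quiescent library 3 was lowest and library 4 highest (-3.16 ± 0.24). Gbp7, Gbp3, Igtp, Gbp2 and Irgm1 differed by -2.56, -2.03, -1.82, -1.44 and -1.35.

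Among the effectors 13 of 19 tested were lower in culture, where 13.2% of all genes were, and 16 after rescaling, where 16.2% were. Ifitm1 stood at 171, 128 and 161 TPM in the control cultures, 13.9-fold below quiescent cells by the ratio of means (-3.80 ± 0.10; adjusted p = 1.17e-08). Its relatives differed by less: Ifitm3 was at 1609.8, 1131 and 1366 TPM (-1.22) and Ifitm2 at 1419, 1200.2 and 1374 (-0.64, below the minimum fold for a call). The same spread was seen among the IFIT genes, where Ifit3 was at 58.3, 38.9 and 36.1 TPM (-2.98 ± 0.19) and Ifit1 at 31.2, 20.02 and 17.3 (-1.19 ± 0.27). Ifit3b and Ifit2 differed by -2.23 and -1.14. Also lower were Oas2 (-2.25), Rsad2 (-1.89), Mx2 (-1.59), Oasl1 (-1.42), Oasl2 (-1.30), Isg15 (-1.23) and Usp18 (-1.10). Not called were Mx1 (-0.98), Oas1a (-0.96), Isg20 (-0.78) and Eif2ak2 (-0.72), with overlapping groups for Eif2ak2. After rescaling Mx1 (-1.09), Oas1a (-1.22) and Isg20 (-1.03) were called lower. Bst2 went the other way. It was at 602, 459 and 505 TPM in culture, above all 4 quiescent libraries, with a log2 difference of 0.72 ± 0.09 (adjusted p = 9.34e-05) that stayed below the minimum for a call. Usp18 was called in 5 of the 7 fits that each left out 1 library.

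The transcription factors divided into 5 that were lower in culture, where 13.2% of all genes were, and 4 that were not called. Irf1 was at 66.4, 68.3 and 68.0 TPM, 3 values within 2 TPM of each other, against 726 to 1097 in quiescent cells (-3.68 ± 0.14; adjusted p = 7.06e-08). Irf8 was at 5.56, 5.54 and 5.98 TPM (-3.44 ± 0.15), 12.8-fold below quiescent cells by the ratio of means. Irf7 was at 57.5, 36.5 and 33.3 TPM, with control culture 1 the highest (-1.70 ± 0.17). Irf5 (-1.19) and Stat2 (-1.13) were lower too. Irf9, the partner of Stat2, was at 64.2, 56.4 and 47.8 TPM against 71.8, 75.8, 75.0 and 77.2 in quiescent cells (-0.42, not called). Irf2 (-0.88) and Stat3 (-0.39, adjusted p = 0.0744) were not called either. After rescaling 6 factors were called lower, with Irf2 among them (-1.15), where 16.2% of all genes were. Irf3 was at 103, 98.9 and 105 TPM, above every quiescent library (0.31), and its log2 difference after rescaling was 0.05.

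The receptors had the median difference closest to 0 of the 5 roles, at -0.23. Ifngr1 was at 81.98, 88.4 and 81.96 TPM in culture and 86.9, 83.9, 93.1 and 87.2 in quiescent cells. The groups overlapped, and the 95% interval of the log2 difference ran from -0.21 to 0.09 (adjusted p = 0.425). Ifnar1 was at 38.6, 46.1 and 43.6 TPM (0.29) and was 0.03 after rescaling. Ifngr2 differed by -0.40. Ifnar2 alone was called lower, at 224, 208 and 239 TPM (-1.04 ± 0.07), and lost the minimum fold in 2 of the 7 fits that each left out 1 library. Of the sensors Ifih1 was lower, at 25.3, 28.9 and 20.6 TPM (-1.71 ± 0.14). Ddx58 (-0.94) and Tmem173 (-0.92) were below quiescent cells in every library but under the minimum fold. After rescaling all 3 sensors were called lower (Ddx58 -1.20, Tmem173 -1.18), where 16.2% of all genes were. Beside these differences, Kupffer markers summed to 141 to 180 TPM in control cultures against 276 to 359 in quiescent libraries, and sinusoidal endothelial markers to 107 to 121 against 521 to 1198. In culture these sums were nearly all Slc40a1 (141 to 178 TPM) and the set of Bmp2, Egfl7 and Clec14a (105 to 119 TPM). Without them the sums were 0.43 to 1.28 against 93.7 to 195 TPM and 2.02 to 2.37 against 292 to 897. Their part in the differences was not tested.

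**Figure D3:**
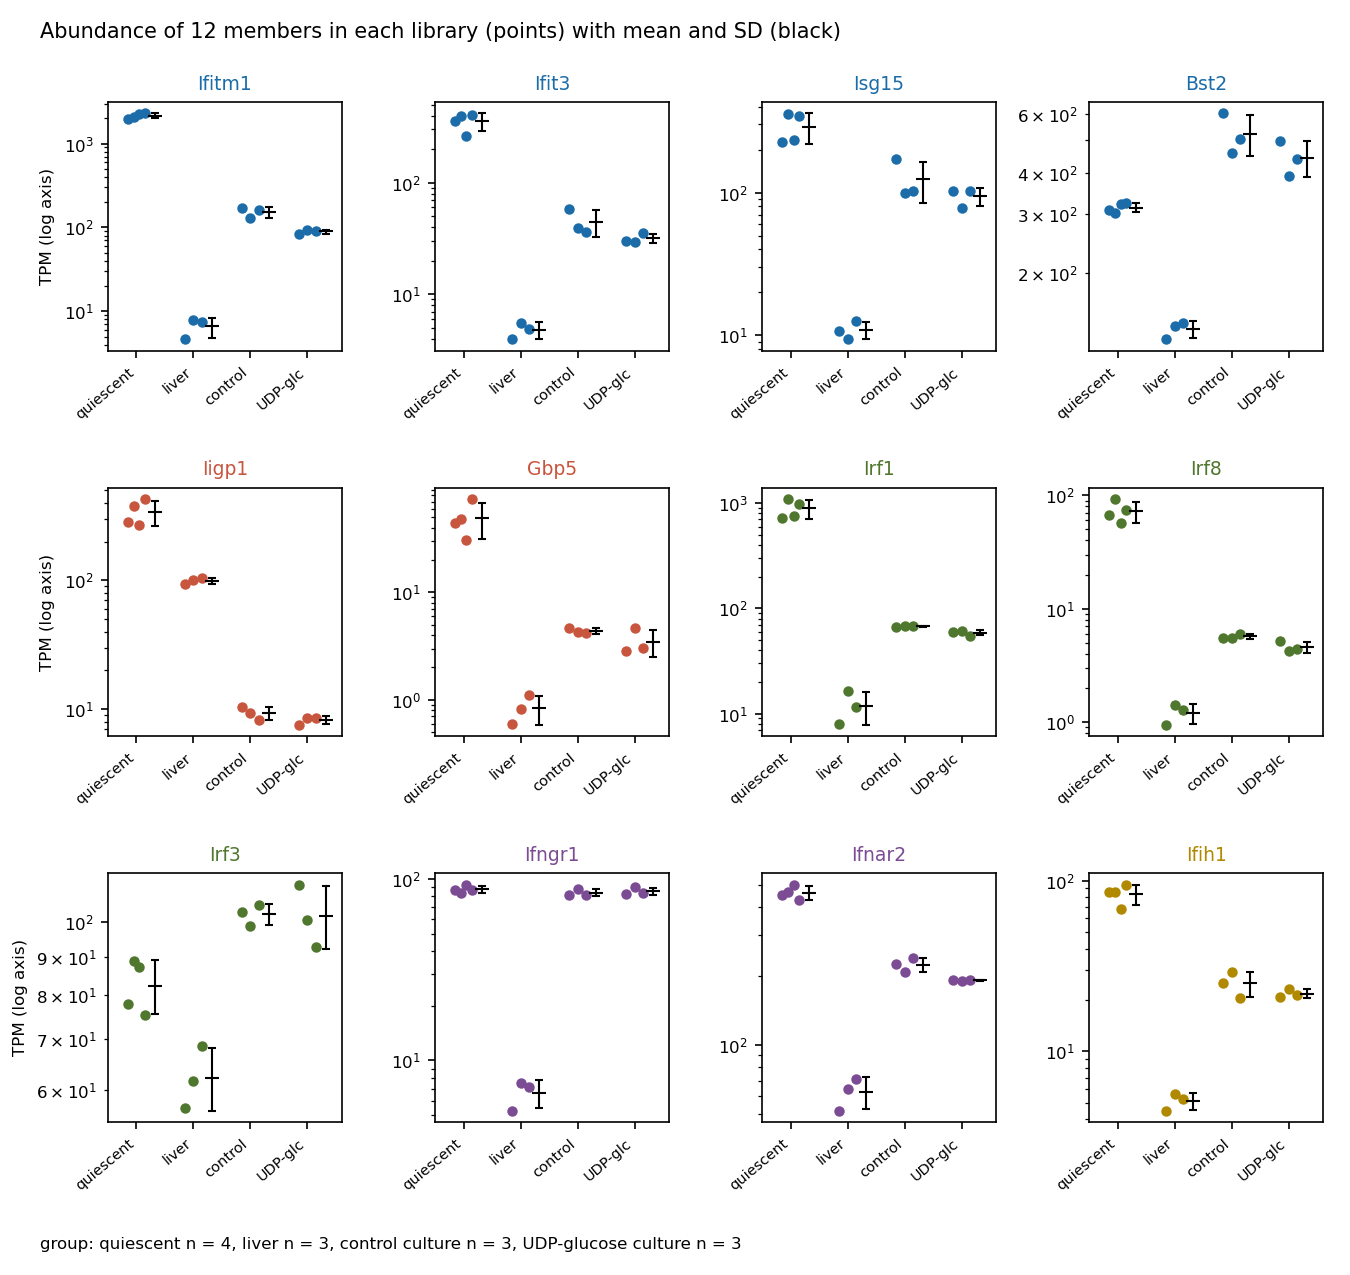
TPM (log axis, with its own range in each panel) of 12 members in the 4 bulk groups; points are libraries and the black bars show the mean and SD (n = 4, 3, 3 and 3). Ifitm1, Iigp1, Gbp5, Irf1 and Irf8 are 11.2-fold or more lower in control cultures than in quiescent cells by the ratio of means, the points of Ifngr1 lie at 83.9 to 93.1 TPM in quiescent cells and reach 88.4 TPM in control cultures, and Bst2 and Irf3 lie higher in culture.

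The third comparison asked what UDP-glucose does to the cultured cells. Control cultures enter both this comparison and the one before. Of the 41 members tested 1 was called, Ifitm1, which was lower. The background was 0.181% of 12161 genes called lower and 0.428% called higher (0.609% in either direction), with an adjusted p below 0.05 from limma and no minimum fold. Ifitm1 was at 84.1, 94.1 and 90.1 TPM with UDP-glucose and 171, 128 and 161 in control cultures. The groups did not overlap, and the log2 difference was -0.77 ± 0.11 (95% interval -1.02 to -0.51; adjusted p = 0.0342), lower in 3 of 3 libraries than in every control. The call was lost with no filter on low values (adjusted p = 0.121), with median-of-ratios rescaling (0.113; 0.0822% of all genes lower and 0.518% higher), with all 13 bulk libraries in 1 fit (0.0732) and with a constant variance prior (0.125). It was also lost when control culture 1 (0.0898), control culture 3 (0.182), UDP-glucose culture 1 (0.124), 2 (0.104) or 3 (0.159) was left out, while the log2 difference stayed between -0.89 and -0.68.

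No other member was called with UDP-glucose, and 5 more had an unadjusted p below 0.05, all lower: Ifit3 (-0.45), Oasl2 (-0.36), Ddx58 (-0.20), Irf1 (-0.20) and Ifnar2 (-0.22). That makes 6 of 41 lower and 0 higher, where 6.61% of all genes were lower at such a p and 3.42% higher. After median-of-ratios rescaling 1 member had an unadjusted p below 0.05 by limma, with 1213 of 12161 genes in either direction. When each library was left out, 3 to 14 members had such a p. Of the 41 members 11 were lower without overlap and 0 higher, where 16.3% of all genes did not overlap, 11.5% lower and 4.73% higher. The median difference was -0.23, against -0.05 for all genes, and 38 of 41 members were below 0, where 63.9% of all genes were. Effectors had a median of -0.36, GTPases -0.27, transcription factors -0.23, receptors -0.19 and sensors -0.18. Control culture 1 was the highest control for 23 of the 41 members (56.1%), against 21.2% of genes. Without it the members' median was -0.17, against -0.08 for all genes, and 36 members were below 0, where 68.7% of all genes were. Isg15 shows the pattern: it was at 171, 100.004 and 102 TPM in control cultures and 102, 78.2 and 102 with UDP-glucose, so 2 control values fell close to 2 treated ones. Its log2 difference was -0.36 with a 95% interval from -0.86 to 0.13. For Irf7 it was -0.45 (-0.94 to 0.04). Narrower intervals were seen for Ifngr1 (0.02, -0.13 to 0.18) and Tmem173 (0.02, -0.16 to 0.20). A p that missed the threshold does not show that the cultures were alike. Beside these values, stellate markers summed to 10383 to 11806 TPM with UDP-glucose against 12467 to 13038 in control cultures, and sinusoidal endothelial markers to 85.2 to 91.5 against 107 to 121. The second of these sums was nearly all Bmp2, Egfl7 and Clec14a (83.5 to 88.7 against 105 to 119 TPM), and the other 10 markers of that list summed to 1.68 to 3.18 against 2.02 to 2.37 TPM. Their part in the differences was not tested.

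**Figure D4:**
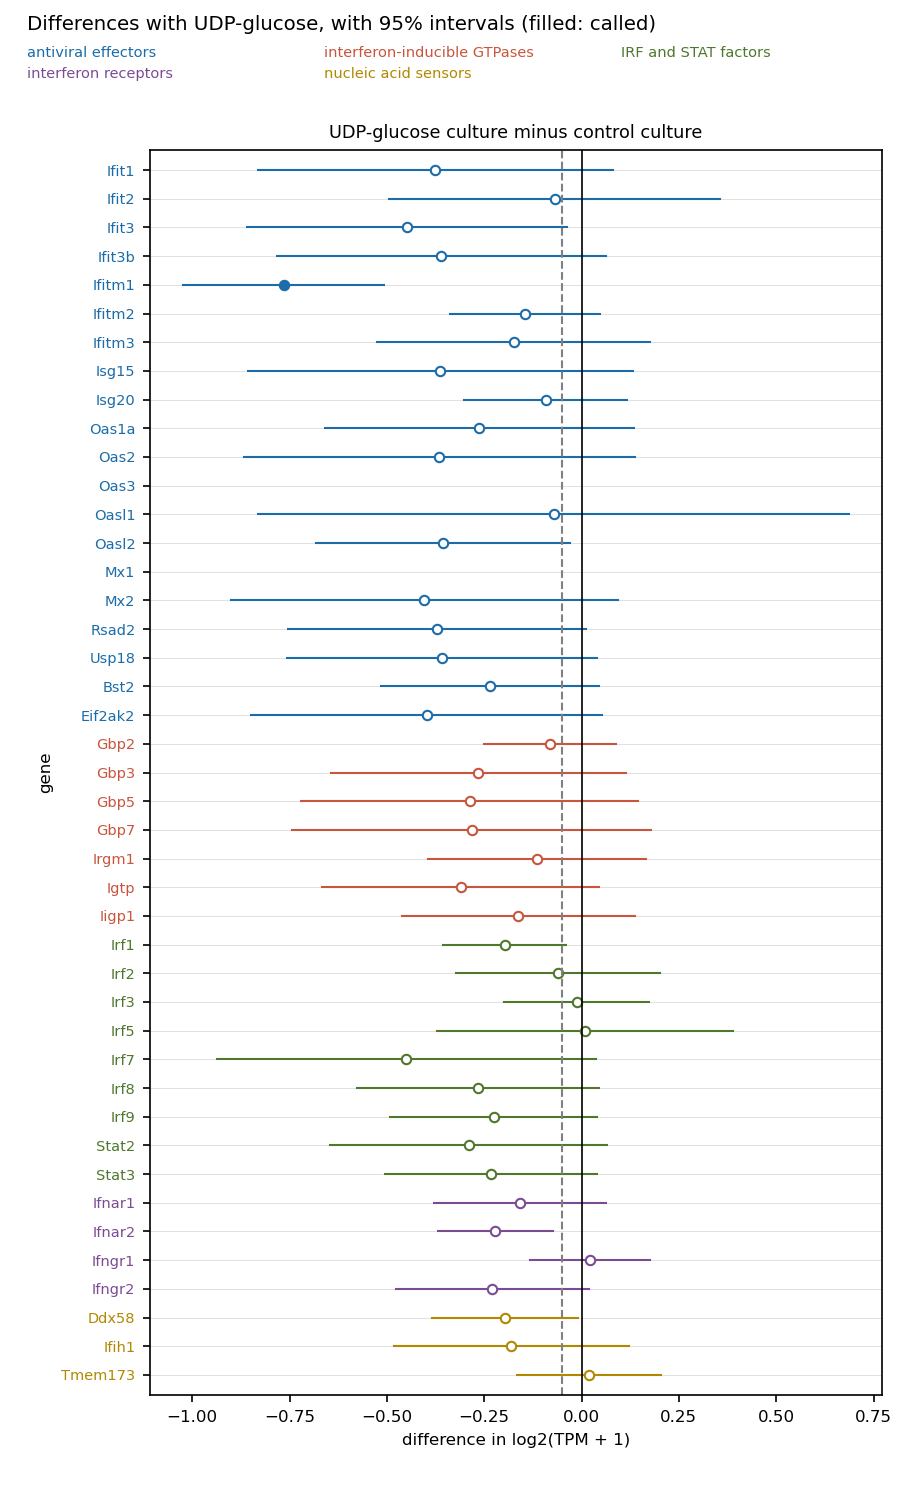
Differences in log2(TPM + 1) of the members (rows, coloured by role) between UDP-glucose and control cultures, with 95% limma intervals; the filled point (Ifitm1) was called, and the dashed grey line is the median of all genes tested. Oas3 and Mx1 were not tested; 38 of 41 points lie left of 0, and most intervals cross it.

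Libraries of a group differed in how high the members stood together. Quiescent library 3 had the lowest value of its group for 26 of 42 members (61.9%), against 39.8% of 12263 genes, and library 4 the highest for 24 (57.1%), against 27.2%. The GTPases, for example, summed to 796, 968, 728 and 1105 TPM in quiescent libraries 1 to 4. In the same libraries Ifit1 was at 50.5, 59.2, 33.5 and 71.2, Rsad2, which makes a chain-terminating nucleotide, at 13.2, 18.7, 8.51 and 18.6, and Mx2 at 41.8, 44.8, 27.3 and 56.9 TPM, all with library 3 lowest and library 4 or 2 highest. The receptor chain Ifngr1 (86.9, 83.9, 93.1 and 87.2) and Ifitm1 did not follow that order. Markers of other cells had another order: Clec4f was at 41.8, 19.6, 30.4 and 39.9 TPM and the endothelial Clec4g at 146, 282, 197 and 96.7. The part of these markers in the order of the libraries was not tested.

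Other genes of the pathway were listed apart from the members, and 96 of the 97 listed were found. In quiescent cells against liver 66 of 73 tested were higher and 1 lower, with a median of 3.38, where 67% of all genes were higher and 10.9% lower. After median-of-ratios rescaling 44 were higher and 4 lower, where 26.7% and 26.1% of all genes were. Of the receptor kinases and feedback genes 7 of 9 were higher and 1 lower, of the sensing adaptors and kinases 6 of 8 were higher, of other interferon-induced genes 41 of 42 and of antigen processing and chemokine genes 12 of 14. The highest differences were those of the chemokine Cxcl10, at 515, 844, 499 and 453 TPM against 1.14, 1.89 and 1.54 (7.81 ± 0.21), the cytokine signalling inhibitor Socs3, at 926, 1224, 1074 and 1130.3 against 6.03, 6.85 and 4.55 (7.33 ± 0.15), and the GTPase Tgtp2, at 161, 260.3, 173 and 238 against 0.249, 1.85 and 0.801 (6.79 ± 0.26). The phosphatase Ptpn6, a leukocyte signalling brake, was lower (3.37, 1.73, 2.74 and 2.10 against 6.96, 8.56 and 7.87 TPM; -1.36 ± 0.17). In control culture against quiescent cells 42 of 73 were lower and 1 higher, with a median of -1.22, where 13.2% of all genes were lower and 18.6% higher. After rescaling 50 were lower and 0 higher, with 16.2% and 12.3% of all genes. Cxcl10 was at 5.03, 3.57 and 5.21 TPM in culture (-6.66 ± 0.21), Socs3 at 33.8, 33.6 and 31.6 (-5.00 ± 0.09) and the guanylate-binding Gbp6 at 2.35, 2.58 and 1.87 against 81.9, 108, 81.4 and 67.6 (-4.70 ± 0.16). The kinase Tbk1, which phosphorylates Irf3, was the 1 gene called higher, at 1.02 ± 0.12, with 51.4, 72.6 and 62.0 TPM in culture against 32.5, 27.1, 28.1 and 31.3. With UDP-glucose 0 of 70 were called by limma, 11 had an unadjusted p below 0.05, all lower, where 6.61% of all genes were lower at such a p, and the median was -0.18.

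The interferon genes themselves were near 0 in every bulk library, and 0 of 21 passed the filter. Ifnb1, the gene of interferon beta, was at 1.44, 0.151, 0 and 0.183 TPM in the quiescent libraries and listed at 0 in all others. Ifng was listed at 0.0496, 0 and 0.193 TPM in liver and at 0 elsewhere. Ifnz was at 0.370, 0, 0 and 0.730 TPM in the quiescent libraries, Ifna4 at 0.24 in quiescent library 1, and Ifnab at 0.30 and 0.26 in quiescent libraries 2 and 3. Ifna16 was at 0.05 TPM in liver library 2, Ifna6 and Ifna14 at 0.12 each and Ifna15 at 7.56e-06 in control culture 3. Without read counts, values this low cannot be told from a few reads.

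Splitting the members by an exact ISRE match gave similar medians. With 1 mismatch allowed, 27 of 37 members and 15 of 16 effectors with a window held an ISRE. Some members without an exact match thus hold a near one, so the split cannot show what the element does. In quiescent cells against liver the 20 tested members with an ISRE match had a median log2 difference of 3.73, and all 20 were higher. The 16 without one had 3.30, with 13 higher, where 67% of all genes were higher. Ifit3b, Oas1a, Gbp2 and Gbp5 of the first set and Ifit2 of the second passed the filter through the quiescent libraries alone. Their calls could only point upward. In culture against quiescent cells the medians were -1.29 (14 of 20 lower) and -1.09 (9 of 16 lower), where 13.2% of all genes were lower. With UDP-glucose the medians were -0.27 and -0.21. Ifit1 and Ifit3, both with 2 ISRE matches within 160 bases of the start, differed by -1.19 and -2.98 in culture. Ifitm1, with none in the window searched, differed by -3.80. No test of these medians was made.

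The single-cell library placed the members among the cells of a normal liver. It is 1 library, so there is no replicate and no test. Values are unique molecular identifiers (UMIs) summed over a class and scaled to all UMIs of that class as CPM, with exact Poisson 95% intervals, and shares of cells with a UMI, with exact binomial 95% intervals, both covering counting error only. From 5063 barcodes 4807 cells were kept, and 22 clusters were made with the members and pathway genes left out, of which 19 were named from markers in 13 classes. Names are rebuilt from markers and may differ from the submitters'. Classes of at least 50 cells included 343 stellate-like cells (median 3158 UMIs), 411 Kupffer-like cells (2002), 2013 sinusoidal endothelial-like cells (1811) and 490 hepatocyte-like cells (1856.5). An endothelial class led by Fabp4, Cdh13 and Rspo3 had 411 cells, and a myeloid class led by the MHC class II genes H2-Eb1, H2-Ab1 and Cd74 had 114. The doublet caller marked 1 cell (0.021%), which is too few to have worked, so doublets were in effect not removed.

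Among the named classes of at least 50 cells, stellate-like cells had the highest value for 13 of the 42 members. Intervals were apart from the next class for 7 of them. Kupffer-like cells led 12, with 4 apart. How often each class leads over all genes was not counted, so these counts describe the members only. Plasmacytoid dendritic cell-like cells led 5, the MHC class II myeloid cells 4, the Fabp4 and Rspo3 endothelial cells 3, erythroid-like cells 2, and B, T and NK cell-like cells 1 each. The sum of all members was 9518 CPM in stellate-like cells. Next came the Fabp4 and Rspo3 endothelium (7559 CPM), plasmacytoid dendritic cell-like cells (7509.8) and sinusoidal endothelium (7394), and erythroid-like cells had the least (874). In stellate-like cells Ifitm1, Ifitm2 and Ifitm3 made 6696 CPM of that sum. Without those 3 genes plasmacytoid dendritic cell-like cells had the highest sum, at 6335 CPM, followed by Kupffer-like cells (3487), the MHC class II myeloid cells (2895), stellate-like cells (2822) and sinusoidal endothelium (2545). Most of the 6335 CPM in plasmacytoid dendritic cell-like cells was Bst2 (2338 CPM) and Irf8 (2330.5 CPM), so this order too rests on a few genes.

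Among the effectors that led in stellate-like cells, Ifitm3 and Ifitm1 had the highest CPM. Ifitm1 was at 1763 CPM (interval 1687 to 1841) there and the next class, the MHC class II myeloid cells, at 144 CPM (interval 109 to 188). A UMI of Ifitm1 was found in 91.8% (315 of 343; interval 88.4 to 94.5) of stellate-like cells, and in 4.08% (20 of 490; interval 2.51 to 6.23) of hepatocyte-like cells. With each cell thinned to 1000 UMIs these shares became 73.0% and 0.636%, so the gap was there at equal depth. Whether UMIs in hepatocyte-like cells were free RNA or the cells' own was not tested. Ifitm3 was at 2952 CPM (interval 2853 to 3053) in stellate-like cells, ahead of every other class. Ifitm2 instead was highest in endothelium, at 3429 CPM (interval 3302 to 3559) in the Fabp4 and Rspo3 class and 3118 CPM (interval 3063 to 3175) in the sinusoidal class, against 1981 CPM (interval 1901 to 2064) in stellate-like cells. Isg15 was at 255 CPM (interval 227 to 286) in stellate-like and 65.3 CPM (interval 49.9 to 84.1) in Kupffer-like cells, Ifit3 at 156 CPM (interval 134 to 180.4) and 59.9 CPM (interval 45.1 to 77.9), and Ifit1 at 74.9 CPM (interval 59.9 to 92.5) and 25.04 CPM (interval 15.9 to 37.6). The share of cells with an Isg15 UMI was 37.9% (130 of 343; interval 32.7 to 43.3) of stellate-like and 5.71% (28 of 490; interval 3.83 to 8.15) of hepatocyte-like cells, and 18.5% and 2.54% after thinning.

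Other effectors led elsewhere. Oas2 was at 49.0 CPM (interval 35.7 to 65.6) in Kupffer-like cells and 7.83 CPM (interval 3.58 to 14.9) in stellate-like cells. Bst2 was at 2338 CPM (interval 2158 to 2528) in plasmacytoid dendritic cell-like cells, 963 CPM (interval 932 to 994) in sinusoidal endothelial-like cells and 379.5 CPM (interval 345 to 417) in stellate-like cells. Isg20, an exonuclease, led in erythroid-like cells at 187 CPM (interval 152 to 228).

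Of the GTPases Iigp1 was at 137 CPM (interval 116 to 159.8) in stellate-like and 108 CPM (interval 91.7 to 126) in hepatocyte-like cells, with overlapping intervals. Those were its top classes, and both whole liver and quiescent cells held it at 93 TPM or more in the bulk data. Gbp2 led in MHC class II myeloid cells at 113 CPM (interval 81.5 to 152) and Igtp in T cell-like cells at 85.2 CPM (interval 67.2 to 106).

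Of the 9 transcription factors Kupffer-like cells led 3 (Irf1, Irf7 and Irf9), stellate-like cells 2 (Irf3 and Stat3), plasmacytoid dendritic cell-like cells 2 (Irf8 and Stat2), B cell-like cells 1 (Irf2) and MHC class II myeloid cells 1 (Irf5). Intervals were apart from the next class for Irf1, Irf2, Irf7 and Irf8. Irf8 was at 2330.5 CPM (interval 2151 to 2521) in plasmacytoid dendritic cell-like cells, 542 CPM (interval 471 to 621) in MHC class II myeloid cells, 84.4 CPM (interval 68.5 to 103) in stellate-like cells and 10.5 CPM (interval 5.85 to 17.2) in hepatocyte-like cells. An Irf8 UMI was found in 20.1% (69 of 343; interval 16.0 to 24.8) of stellate-like cells and 2.86% (14 of 490; interval 1.57 to 4.75) of hepatocyte-like cells, and in 5.57% and 1.27% after thinning. Irf7 was at 358 CPM (interval 321 to 399) in Kupffer-like cells and 70.5 CPM (interval 56.0 to 87.6) in stellate-like cells. Irf1, next to the IFITM genes in the sorted bulk libraries, was at 129.6 CPM (interval 107 to 155) in Kupffer-like and 84.4 CPM (interval 68.5 to 103) in stellate-like cells. Irf2 led in B cell-like cells at 206 CPM (interval 165 to 253) and Irf5 in MHC class II myeloid cells at 265 CPM (interval 216 to 322). Among the receptors Ifnar2 was at 331 CPM (interval 298 to 366) in stellate-like cells and 268 CPM (interval 210.1 to 338) in plasmacytoid dendritic cell-like cells, and Ifngr1 at 359 CPM (interval 322 to 400.2) in Kupffer-like and 108 CPM (interval 89.8 to 129) in stellate-like cells. The sensor Ifih1 was at 53.1 CPM (interval 40.6 to 68.2) in stellate-like cells and 18.5 CPM (interval 10.8 to 29.6) in Kupffer-like cells. Interferon gamma RNA (Ifng) was at 64.2 CPM (interval 35.9 to 106) in NK cell-like cells, 40.9 CPM (interval 28.8 to 56.4) in T cell-like cells and 1.74 CPM (interval 0.211 to 6.29) in stellate-like cells.

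**Figure D5:**
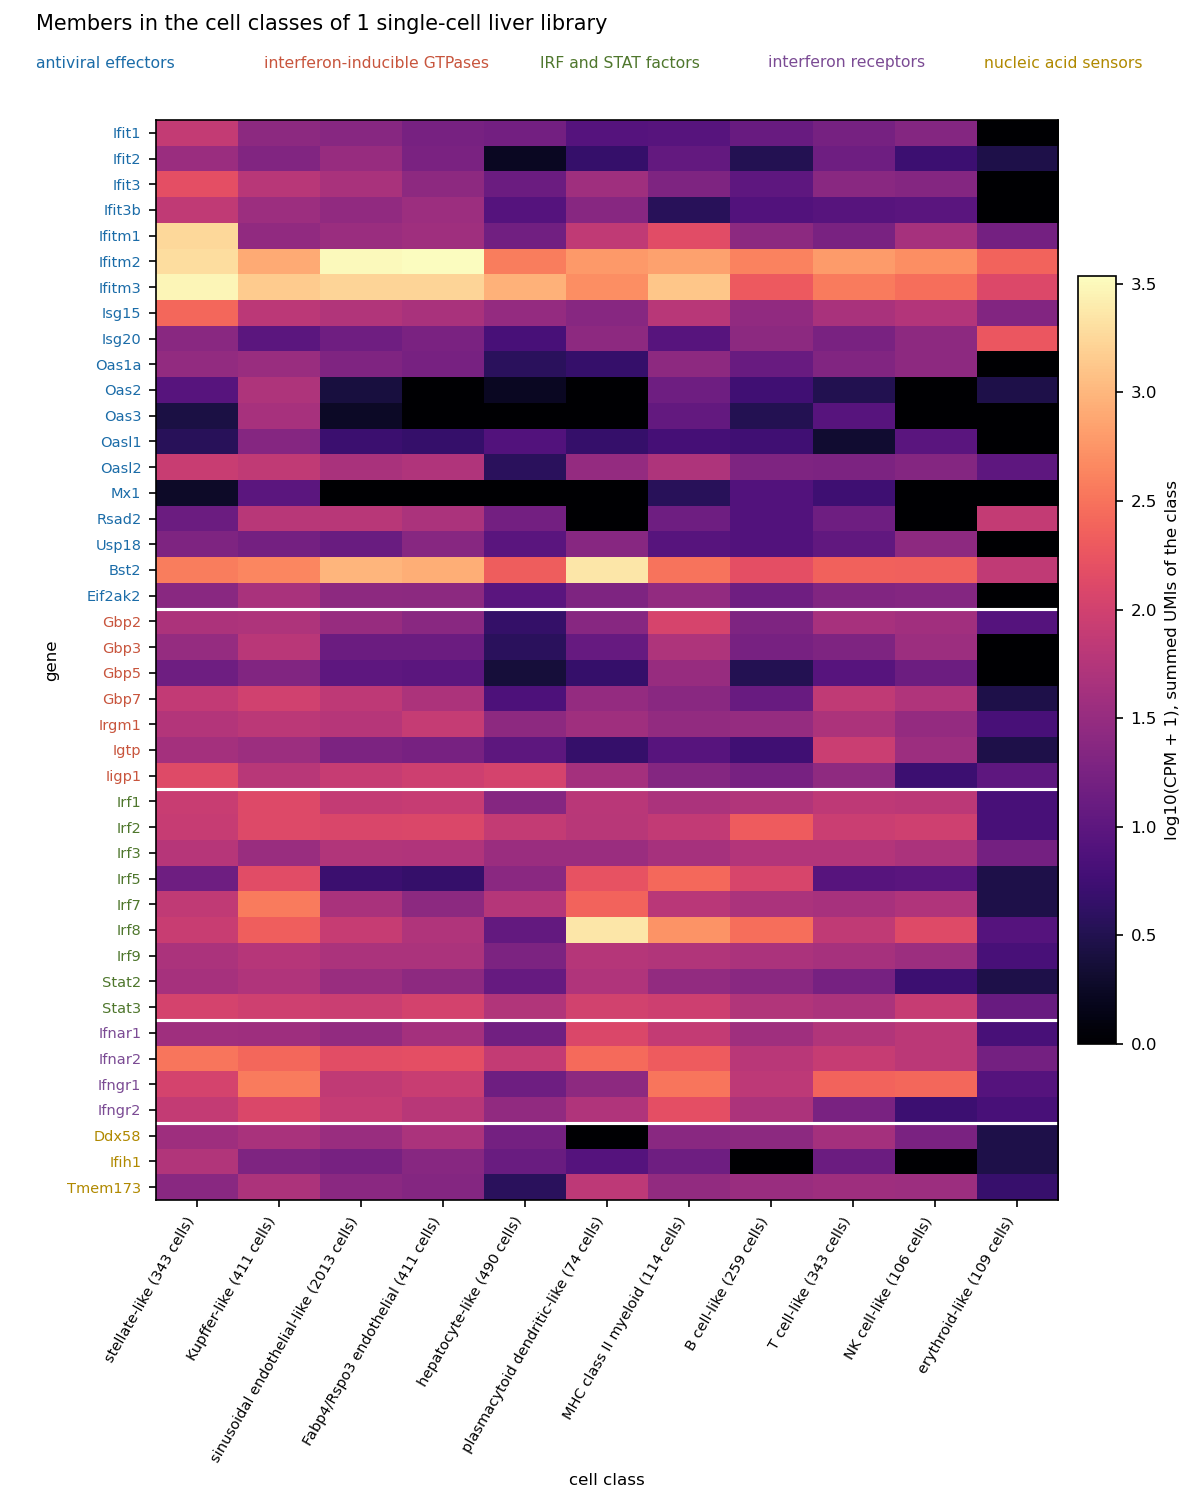
Level of 42 members (rows, by role, with white lines between roles) in the 11 cell classes of at least 50 cells in 1 single-cell library (columns, with cell numbers), as log10(CPM + 1) of the summed UMIs. Ifitm1 stands out in stellate-like cells, Irf8 and Bst2 in plasmacytoid dendritic-like cells, and Irf7 in Kupffer-like and plasmacytoid dendritic-like cells.

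The order of the members in sorted quiescent cells was close to their order in stellate-like cells of the single-cell library (Spearman's rho 0.836 across 42 genes, which are not replicates; TPM is per length and 3′ UMIs are not). Ifitm3 ranked 1 in both, Ifitm1 ranked 2 and 3, Ifitm2 3 and 2, Ifnar2 5 and 5, and Irf1 4 and 11. Some members moved further in either direction: Ifngr2 ranked 33 in bulk and 15 in single cells, Gbp3 14 and 30, and Irf8 25 and 11.

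The single-cell levels also sort the members by where they are high within liver. Such a sort was not made for all genes. In all, 10 members had stellate-like intervals above the Kupffer-like ones, and 9 of these 10 were called lower in culture, with a median log2 difference of -1.47. The 13 with stellate-like intervals below the Kupffer-like ones had 8 of 12 tested called lower, with a median of -1.56, and the 19 with overlapping intervals had 9 lower, with a median of -0.98. Against sinusoidal endothelial-like cells, 16 members were higher in stellate-like cells, and 15 of these were called lower in culture, with a median of -1.70. The 22 with overlapping intervals had 10 of 21 tested called lower (median -0.98), and the 4 that were lower in stellate-like cells had 1 (median -0.76), where 13.2% of all genes were called lower. Ifitm1 and Iigp1, the members that fell furthest, were thus among those higher in stellate-like than in Kupffer-like cells, while Irf1 and Irf8, which came next, were among those lower.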

How the data were processed

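The deposited bulk values are TPM per gene; kallisto 0.44.0 and bcl2fastq 2.19 are named, with GRCm38 and mm10, per the submitters' processing notes. Strand use: not given in the sources used here. In the single-cell matrix the deposited values are UMI counts, with Cell Ranger named per the submitters' processing notes. Each bulk table had 35197 rows, of which 26 with dates for gene names were dropped (at most 0.319% of TPM). Tests used limma 3.58.1 (R 4.3.3; lmFit, eBayes with trend) on log2(TPM + 1), for genes that averaged 1 TPM or more over the compared libraries, two-sided, with Benjamini-Hochberg adjustment over all genes tested. No sample was dropped or imputed. The log2(TPM + 1) scale understates changes of low genes. The scripts were tested on simulated data. As no label says what separates the libraries of a group, the p-values reflect only the spread among these samples, and that spread may be technical.

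Single cells were required to have 500 UMIs, 200 genes and at most 20% mitochondrial UMIs (scanpy 1.11.5, Python 3.11.15), then clustered on 2000 variable genes, 30 components and 15 neighbours at resolution 1. Promoters and positions came from tables of GRCm38, the build the notes name. The members and lists were chosen with earlier results of these data known. Text names all 43 members, and of the other pathway genes the 3 called with the largest rise and the 3 with the largest fall in each comparison, plus interferon genes above 0. Alternatives were another pseudocount, filter, scaling, fit and variance prior, and leaving out each library.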

Additional observations from a re-analysis of the deposited data

Results flagged for a closer look

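For the 43 members the highest and lowest quiescent library were compared with the rest of that group of 4, and 2 stood apart by Dixon's criterion, where chance marks about 1 in 20 groups. Isg20, an exonuclease of single-stranded RNA, was lowest in quiescent library 3, at 28.2 TPM, while the other 3 libraries were at 34.3, 34.3 and 34.4. Gbp2 was highest in quiescent library 4, at 173.3 TPM, against 101, 113 and 112 in the others. Groups of 3 were not examined in this way.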

How the results depend on the processing

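In quiescent cells against liver 0 members were called lower, but 2 after median-of-ratios rescaling and 1 after quantile normalisation. The direction reversed after median-of-ratios rescaling for Oasl1 (-0.73), Mx1 (-0.13), Bst2 (-0.72), Iigp1 (-0.19), Irf2 (-0.38), Irf3 (-1.51) and Stat2 (-0.29), after quantile normalisation for Oasl1 (-0.78), Mx1 (-0.37) and Irf3 (-0.78), and for Irf5 when liver libraries were left out (-0.22 to 0.060). The 38 members called higher became 29 and 32 under these scalings, and 38 to 40 when each library was left out. In culture against quiescent cells the 27 called lower became 25 to 29 when each library was left out.

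With UDP-glucose 0 members were called lower with no filter on low values, with median-of-ratios rescaling, with all 13 libraries in 1 fit and with a constant variance prior, and 0 to 1 when each library was left out. The cause was not tested. Differences near 0 reversed there for Oasl1 (0.017) and Irf3 (0.022) after quantile normalisation and for Irf3 (0.037) after median-of-ratios rescaling. When each library was left out they ranged from -0.23 to 0.10 for Ifit2, -0.33 to 0.23 for Oasl1, -0.20 to 0.021 for Irgm1, -0.13 to 0.037 for Irf2, -0.084 to 0.052 for Irf3, -0.046 to 0.045 for Irf5, -0.015 to 0.057 for Ifngr1 and -0.011 to 0.063 for Tmem173. No paired analysis was possible because the labels give no replicate number shared by the groups. TPM holds no depth, so no interval for counting error can be given for bulk values. In single cells the low members rest on few UMIs.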
